A study of Mus musculus with 17 samples.

Results

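The comparison was between hearts 6 weeks and 1 week after transverse aortic constriction (TAC) in mice given vehicle. It used 7 of the 17 libraries of the study. TAC ties a band around the aortic arch, so that the left ventricle has to eject against a raised pressure. All mice were C57BL/6, with no altered allele named in the labels. Of the 7 libraries, 4 came from hearts 1 week after TAC with daily vehicle and 3 from hearts 6 weeks after TAC with daily vehicle. Sex, age and the number of mice per library are not given, and separate animals are not named. The p-values therefore set the time difference against the spread among libraries within a time, part of which may be technical. The time under load cannot be told apart here from age, length of dosing or any batch that follows time. The other 10 libraries were hearts labelled Control (3) and hearts 1 week (4) and 6 weeks (3) after TAC with SR9009, an agonist of the clock repressors REV-ERB alpha and beta. Whether the Control hearts had an operation is not given. Hearts were taken at about zeitgeber hour 10, counted from lights on, and were frozen before total RNA was extracted and sequenced.

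As background, a heart under pressure overload first remodels and then adapts. In the early phase fibroblasts, endothelial cells and leukocytes divide and matrix is laid down, while muscle cells enlarge without dividing and switch on genes of the fetal heart and of mechanical stress. In the later phase division subsides, and a heart that stays loaded may go on to dilate and fail. Cells that divide switch on genes in order, those of DNA replication and histones in S phase and those of the spindle in mitosis. In a whole heart, fewer cells of a type and less RNA per cell cannot be told apart.

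The promoters of the 3 mitosis genes and the 3 interferon-stimulated genes with the smallest p-values are shown, since 32 of 33 genes of the first list and 9 of 20 of the second were lower at 6 weeks. The sequences are from RefSeq on GRCm38.p6, 300 bases from 250 before to 50 after the start, 5′ to 3′ on the gene's strand. In the first 3, capitals mark TTTGAA, the core of the CHR element, and CCAAT, the NF-Y box. In the last 3, capitals mark GAAA, any 2 bases and GAAA again, a core of the interferon-stimulated response element, chosen after the results were seen. Both strands were searched for each motif.
Cenpf, chr1:189688037-189688336, minus strand: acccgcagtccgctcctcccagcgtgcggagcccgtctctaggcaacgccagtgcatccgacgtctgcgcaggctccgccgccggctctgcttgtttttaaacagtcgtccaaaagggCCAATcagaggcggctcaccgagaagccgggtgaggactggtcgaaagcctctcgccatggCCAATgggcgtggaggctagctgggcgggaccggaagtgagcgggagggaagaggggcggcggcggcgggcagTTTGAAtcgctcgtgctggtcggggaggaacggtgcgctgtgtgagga
Birc5, chr11:117848987-117849286, plus strand: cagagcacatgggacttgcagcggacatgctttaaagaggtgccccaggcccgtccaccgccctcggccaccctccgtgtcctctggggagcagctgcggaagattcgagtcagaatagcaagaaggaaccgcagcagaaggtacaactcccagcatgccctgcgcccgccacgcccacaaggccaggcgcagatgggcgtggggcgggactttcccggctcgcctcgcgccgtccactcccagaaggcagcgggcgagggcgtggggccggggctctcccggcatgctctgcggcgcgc
Aspm, chr1:139454523-139454822, plus strand: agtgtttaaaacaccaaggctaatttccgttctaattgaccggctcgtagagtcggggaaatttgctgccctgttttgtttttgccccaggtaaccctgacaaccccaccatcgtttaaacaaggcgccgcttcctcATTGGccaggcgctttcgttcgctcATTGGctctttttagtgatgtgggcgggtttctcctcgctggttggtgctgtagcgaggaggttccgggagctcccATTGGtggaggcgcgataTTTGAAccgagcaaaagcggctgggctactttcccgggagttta
Oasl2, chr5:114896684-114896983, plus strand: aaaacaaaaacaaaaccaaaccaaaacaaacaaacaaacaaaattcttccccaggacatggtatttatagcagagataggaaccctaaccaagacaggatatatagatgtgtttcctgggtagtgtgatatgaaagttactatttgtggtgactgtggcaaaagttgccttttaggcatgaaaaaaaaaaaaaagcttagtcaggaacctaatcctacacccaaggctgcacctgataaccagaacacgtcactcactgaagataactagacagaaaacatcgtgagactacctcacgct
Bst2, chr8:71537423-71537722, minus strand: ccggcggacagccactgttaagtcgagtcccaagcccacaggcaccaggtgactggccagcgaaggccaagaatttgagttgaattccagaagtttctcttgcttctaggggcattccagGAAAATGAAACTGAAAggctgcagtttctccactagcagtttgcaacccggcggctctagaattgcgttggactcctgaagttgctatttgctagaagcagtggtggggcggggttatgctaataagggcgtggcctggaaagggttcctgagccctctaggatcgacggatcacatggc
Gbp3, chr3:142559794-142560093, plus strand: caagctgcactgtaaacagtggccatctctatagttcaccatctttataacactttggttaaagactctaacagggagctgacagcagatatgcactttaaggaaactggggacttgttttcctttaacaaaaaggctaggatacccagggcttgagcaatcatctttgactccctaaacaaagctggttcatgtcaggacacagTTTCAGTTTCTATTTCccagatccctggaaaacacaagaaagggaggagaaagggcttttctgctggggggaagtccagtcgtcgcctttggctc

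The Cenpf promoter held 1 TTTGAA and 2 CCAAT, and that of Aspm held 1 TTTGAA and 3 CCAAT, the latter on the reverse strand. Neither motif was found in the Birc5 window. Over the mitosis list, 24 of 30 promoters (80%) held TTTGAA, against 17.9% of all 32851 promoters of this length. CCAAT was found in 24 of the 30 (80%), against 37.4% of all. Of 27 promoters of the DNA replication list, 9 (33.3%) held TTTCGCGC, TTTGGCGC or TTTCCCGC, forms of the E2F site, against 1.84% of all. The interferon motif was in 9 of 17 promoters (52.9%) of the interferon list, against 3.44% of all. Bst2 and Gbp3 each held 2 copies that overlap, and the Oasl2 window held none. These shares describe letters in a window and not binding.

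The 1 week libraries held between 8.683 and 12.575 M (mega) fragments each, and the 6 week libraries between 13.35 and 15.81 M, so depth did not overlap between the groups. Levels are given below as CPM, counts per M fragments after TMM scaling over the 17 libraries. A value near 1 CPM rests on about 10 fragments and carries a large counting error. Of the 7 libraries, 2 stood apart. On the second principal component of the 1000 most variable genes, which held 20% of their variance, 1 week library 2 and 6 week library 1 lay at 13 and 19.1 and the other 5 between -10.8 and 1.18. The first component held 51.1% and separated the groups. For some of the genes described below the value without one of these 2 libraries is given. Others for which it is not given moved too. Without 6 week library 1, for example, the log2 difference of Upk3b went from -2.91 to -3.81 and that of Rspo1 from -3.31 to -4.24. The authors' tool marked 74 genes as holding too many fragments to count, and these were left out. Myh6 and Ttn, the main adult myosin and titin, are among the 28 uncounted at both times. Another 46 were uncounted only at 6 weeks, Tacc2 and Htra1 among them, mostly within the annotated span of Fgfr2 on chromosome 7 (130162451 to 133123350, mm10).

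Of 15456 genes tested, 1354 (8.76%) passed an adjusted p under 0.05. The 6 week level was the higher one in 667 (4.32%) and the lower one in 687 (4.44%). Genes were named by rank within lists and over all genes. List members beyond the 3 with the smallest p were named after their values were seen. The lists themselves were chosen with earlier results of these data known. Each list count below stands beside these shares of all genes as a description and not as a test. All adjusted p-values here are edgeR's quasi-likelihood p-values after Benjamini-Hochberg adjustment over all genes tested. The differences to the lower side were larger. The median size on the log2 scale was 0.77 among the lower genes and 0.36 among the higher, and 257 lower genes (37.4%) but 50 higher genes (7.5%) differed by at least 2-fold. Non-overlapping libraries were seen for 1912 genes (12.4%) in the higher and 1572 (10.2%) in the lower direction. For the largest differences named over all genes, no overlap and at least 5 CPM in a group were conditions of naming. A statement below that such a gene did not overlap therefore adds nothing to its call. With library totals in place of TMM the median of all genes shifted to -0.10 and the split became 301 higher and 1133 lower, which is 21% of calls higher against 49.3%. Small higher differences depended on this choice. Among the genes named below, Mb, Gpx4, Fbxo40 and Pdhx lost the call with library totals, while Hspb1, Optn and Psmd12 kept it.

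The number of calls depended on which libraries entered. Without 6 week library 3, 102 genes were higher and 134 lower, and without 6 week library 1 the counts were 1430 and 1232. They were 251 and 399 without 6 week library 2. Leaving out a 1 week library gave 199 and 295 (library 1), 707 and 772 (library 2), 191 and 263 (library 3) and 343 and 399 (library 4). The direction of every gene called with all 7 libraries was the same in each of these 7 repeats, where it could be tested. For most of them it could hardly change, since libraries did not overlap for 655 of the 667 higher and 665 of the 687 lower genes. The kept direction therefore adds nothing to those calls. With the library total as a covariate 7 genes were higher and 80 lower. The median standard error was then 1.86 times as large. The sign was as before in 1353 of 1354 genes. Depth and time cannot be told apart beyond this. Of the 125 genes named below by rule that passed, 42 passed in all 7 repeats.

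**Figure D1:**
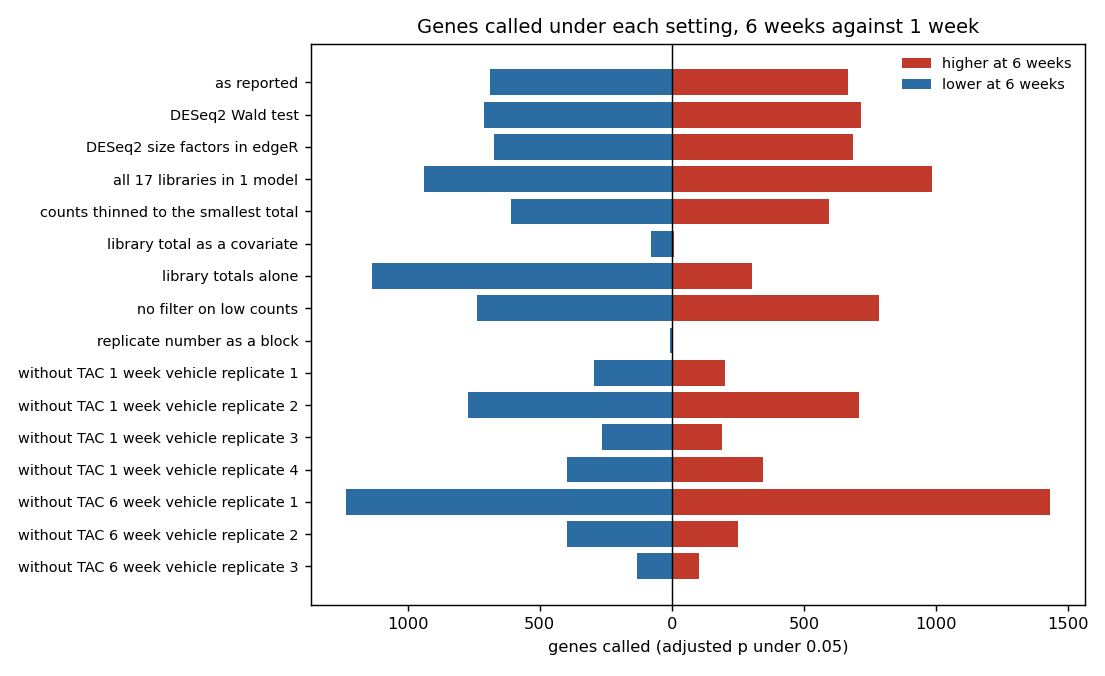
Number of genes called (x axis, adjusted p under 0.05) higher (right, red) or lower (left, blue) at 6 weeks than at 1 week after TAC with vehicle, under each setting (y axis). Bars for the repeats without 1 library run from 102 to 1430 higher and from 134 to 1232 lower, against 667 and 687 as reported.

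Genes of cell division were lower at 6 weeks as a group. Of 33 mitosis genes tested, 32 were lower, against 4.44% of all genes, with a median log2 difference of -2.09 against -0.01 over all genes. Mki67 (chromosome 7, 135689784 to 135716361, mm10), which encodes the proliferation antigen Ki-67, was at 166, 84.1, 177 and 253 CPM in the 1 week libraries and at 31.3, 50.7 and 28.5 CPM at 6 weeks. The groups did not overlap, the lowest 1 week value was that of library 2, and all 7 lay above the Control range of 20.6 to 24.1 CPM. Its log2 difference was -2.22 ± 0.33 (SE, n = 4 and 3, adjusted p = 0.00772). Bub1, a spindle checkpoint kinase, was at 10.1, 4.32, 12.5 and 14.2 CPM at 1 week and at 0.886, 2.41 and 1.10 CPM at 6 weeks, 7.19-fold less. Here 2 of the 3 values at 6 weeks lay within the Control range of 0.717 to 1.48 CPM, and 6 week library 2 lay above it. Birc5, the survivin subunit of the chromosomal passenger complex, differed by -2.09 ± 0.26 (adjusted p = 0.00554), Aspm, a spindle pole protein, by -2.24 ± 0.29 (adjusted p = 0.00577), and Ttk, the checkpoint kinase Mps1, by -2.50 ± 0.35 (adjusted p = 0.00667).

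Cenpf, a kinetochore protein, was at 72.1, 69.7, 66.1 and 104 CPM at 1 week and at 32.5, 32.3 and 30.6 CPM at 6 weeks (log2 difference -1.30 ± 0.14, adjusted p = 0.00301). The 6 week values differed by less than 2 CPM among themselves and lay below the Control range of 92.3 to 117 CPM. At 1 week too no library lay above that range. The values of 72.1, 69.7 and 66.1 CPM lay below it and that of 104 CPM within it, unlike those of Mki67. At 6 weeks Mki67, Aspm and Ttk lay above their Control ranges in all 3 libraries. Cep55, of the midbody that completes cytokinesis, and Depdc1a, also tied to mitosis, were among the 12 largest named differences (-2.52 ± 0.44 and -2.42 ± 0.42). Foxm1, the transcription factor of the G2 and M program, differed by -2.29 ± 0.32. Cenpa, the centromere histone, was the 1 mitosis gene that did not pass, at -0.05. Without 6 week library 3 the mitosis count was 20 of 33, and Cep55 and Depdc1a did not pass (adjusted p = 0.0604 and 0.0594). The other repeats without 1 library kept the count within 1.5 times.

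Of 26 DNA replication genes, 20 were lower (median -0.84). Mcm2, a subunit of the helicase that opens origins, was at 21.4, 15.4, 21.4 and 22.9 CPM at 1 week and at 10, 9.50 and 10.5 CPM at 6 weeks (-1.03 ± 0.13, adjusted p = 0.00577). Rrm2, the small subunit of ribonucleotide reductase, was at 10.2, 6.82, 11.8 and 13.7 CPM at 1 week and at 3.47, 4.59 and 3.44 CPM at 6 weeks (-1.49 ± 0.23, adjusted p = 0.00828). Neither gene's groups overlapped, and 1 week library 2 was again the lowest of its group in both. The largest differences of the list were in Mcm10 (-1.85 ± 0.30), an origin firing factor, Uhrf1 (-1.78 ± 0.34), which reads hemimethylated DNA, and Mcm5 (-1.63 ± 0.26), another helicase subunit. Gins2, of the same helicase complex, differed by -0.73 ± 0.11. Those that did not pass were Pcna (-0.32), Gins1 (-0.46), Prim1 (-0.86), Fen1 (-0.68), Rfc5 (-0.06) and Rfc4 (0.00). The count was 11 without 1 week library 1, 8 without library 3, 13 without library 4 and 5 without 6 week library 3.

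Replication-dependent histone genes, whose messages carry a stem loop in place of a poly(A) tail and are made in S phase, were lower in 37 of 45 tested (median -2.0). Of the 65 members, 20 had too few fragments to test. Hist1h4h was at 26.0, 22.2, 25.6 and 28.0 CPM at 1 week and at 13.4, 11.6 and 13.8 CPM at 6 weeks, with no overlap (-0.99 ± 0.10, adjusted p = 0.00255). Hist1h2bf was at 13.7, 6.93, 14.1 and 23.7 CPM at 1 week and at 1.99, 1.93 and 2.82 CPM at 6 weeks (-2.71 ± 0.38). The differences of Hist1h2bp (-3.05 ± 0.39), Hist1h2bk (-2.81 ± 0.52), Hist1h3b (-2.56 ± 0.38), Hist1h4a (-2.52 ± 0.45), Hist1h2bj (-2.49 ± 0.35) and Hist1h4c (-1.14 ± 0.14) had the same sign. Copies of these genes are near-identical, so fragments may be divided between them. Without 6 week library 3, 13 of the 45 were lower, and Hist1h2bk and Hist1h4a did not pass (adjusted p = 0.0574 and 0.057).

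Of 18 G1 cyclins and CDK inhibitors, 4 were lower (22.2%, against 4.44% of all genes, median -0.22). Rbl1, the pocket protein p107, differed by -1.21 ± 0.17 (adjusted p = 0.00667), Cdkn2c, the inhibitor p18, by -0.99 ± 0.16 (adjusted p = 0.00911) and Cdk2, the S phase kinase, by -0.71 ± 0.12 (adjusted p = 0.0103). The fourth was Cdk6, a G1 kinase (-0.57). In Cdk2 1 week library 4 stood apart at 21.6 CPM, against 16.2 to 16.8 CPM in the other 3. With 6 week library 3 left out, the list held 1 lower gene, and Cdkn2c and Cdk2 did not pass (adjusted p = 0.0515 and 0.057).

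**Figure D2:**
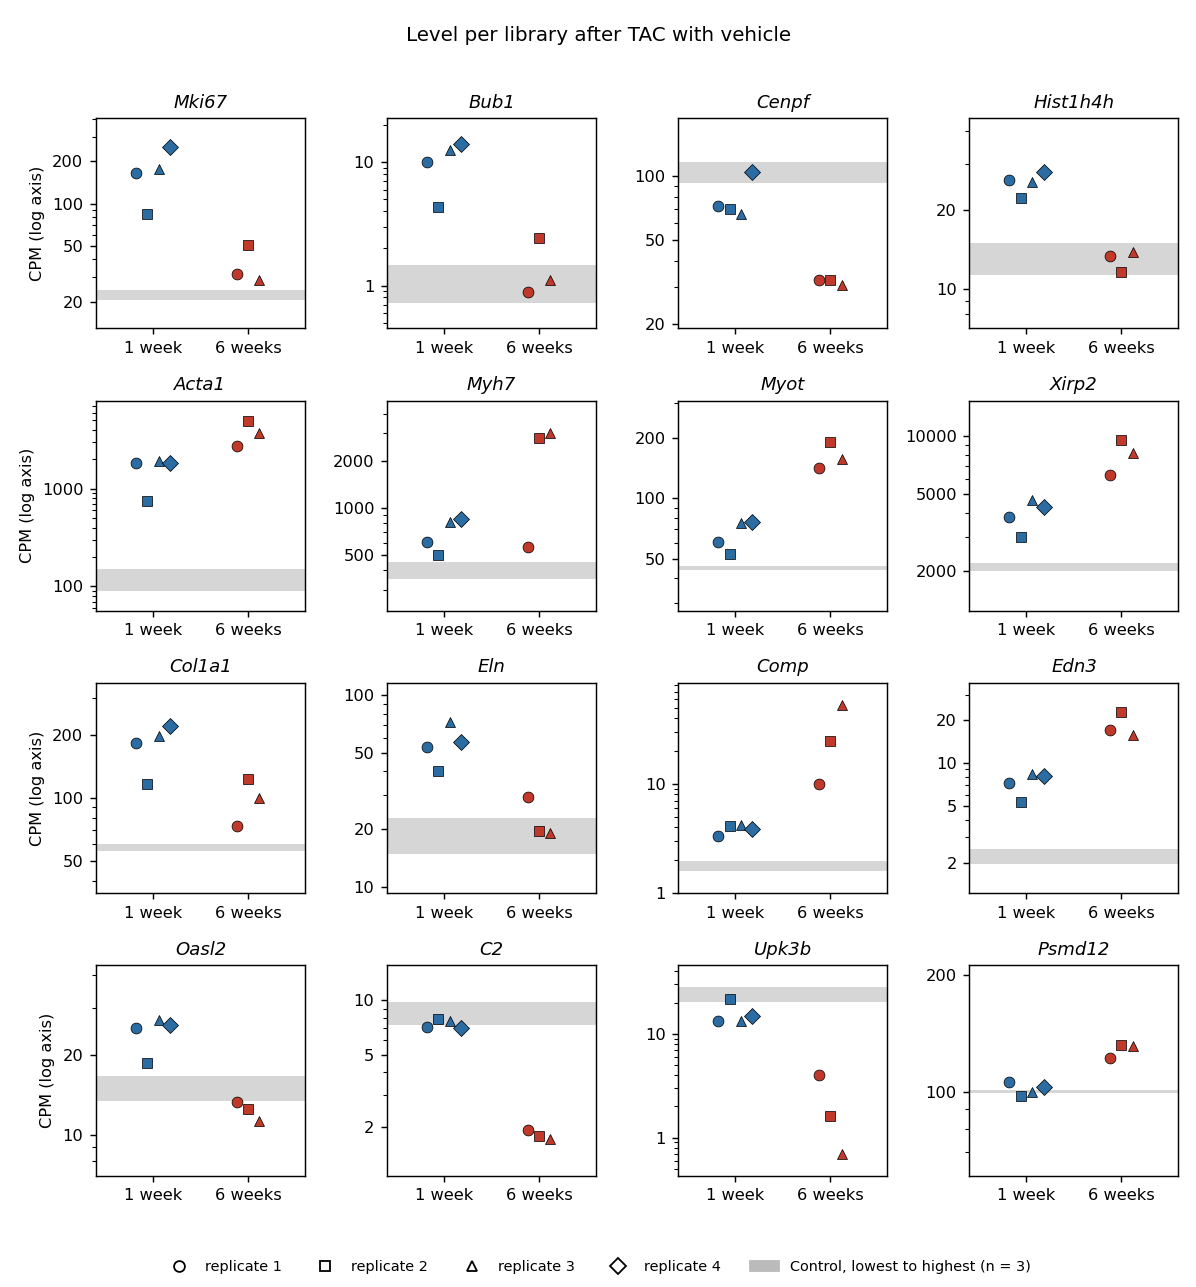
Level of 16 genes in each library (y axis, CPM on a log axis) 1 week (blue) and 6 weeks (red) after TAC with vehicle, with marker shapes for replicate numbers and grey bands for the range of the 3 Control libraries. Points of the 2 times do not overlap except for Myh7, where 6 week library 1 (563 CPM) lies among the 1 week values, and Col1a1, where 6 week library 2 (123 CPM) lies above 1 week library 2 (116 CPM).

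Genes of hypertrophy and the fetal program went the other way. Of 16 tested, 7 were higher, against 4.32% of all genes, with a median of 0.55. Xirp2, an actin-binding protein of the intercalated disc, was at 3801, 3000, 4665 and 4313 CPM at 1 week and at 6309, 9565 and 8219 CPM at 6 weeks (1.02 ± 0.16, adjusted p = 0.0087). Ankrd23, a stretch-sensing ankyrin repeat protein of the sarcomere, was at 549, 511, 654 and 615 CPM at 1 week and at 954, 907 and 861 CPM at 6 weeks (0.63 ± 0.09, adjusted p = 0.00667). Neither gene's groups overlapped, and all 7 libraries lay above the Control ranges of 1990 to 2194 and 303 to 359 CPM. Csrp3, the muscle LIM protein of the Z-disc, differed by 0.36 ± 0.07 (adjusted p = 0.0139), Enah, an actin polymerisation factor, by 0.57 ± 0.11 (adjusted p = 0.0145) and Xirp1, a relative of Xirp2, by 0.35 ± 0.08 (adjusted p = 0.0261).

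Acta1, the skeletal muscle actin of the fetal heart, was at 1831, 746, 1921 and 1842 CPM at 1 week and at 2745, 4961 and 3694 CPM at 6 weeks (1.26 ± 0.29, adjusted p = 0.0288). The groups did not overlap, and 1 week library 2 lay well below the other 3. Without that library the log2 difference was 1.03 ± 0.17 (adjusted p = 0.00787). Myh7, the slow beta-myosin heavy chain, was at 611, 505, 812 and 849 CPM at 1 week and at 563, 2796 and 3038 CPM at 6 weeks (1.61 ± 0.44, adjusted p = 0.0499). Its call rested on libraries 2 and 3, since 6 week library 1 lay inside the 1 week range. Without 6 week library 1 the difference was 2.06 ± 0.16 (adjusted p = 5.4e-05), and Myh7 passed in none of the 6 other repeats (largest adjusted p = 0.197, without 6 week library 3). Acta1 did not pass without 6 week library 2 (adjusted p = 0.103), 6 week library 3 or 1 week libraries 1, 3 or 4.

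The natriuretic peptides and the stress repressor Ankrd1 did not pass. Nppa, atrial natriuretic peptide, was at 570, 182, 378 and 558 CPM at 1 week and at 353, 893 and 772 CPM at 6 weeks (0.67 ± 0.38, adjusted p = 0.298). Nppb, its B-type relative, was at 454, 394, 554 and 647 CPM at 1 week and at 530, 596 and 592 CPM at 6 weeks (0.16 ± 0.14, adjusted p = 0.525, and 0.06 ± 0.11 without 1 week library 2). Ankrd1 differed by 0.54 ± 0.24 (adjusted p = 0.191). In all 3 the groups overlapped, and all 7 libraries lay above the Control ranges of 44.6 to 95.2, 102 to 115 and 939 to 1022 CPM. The count for the hypertrophy list was 2 without 1 week library 1, 6 week library 2 or 6 week library 3, and 4 without 1 week library 3 or 4.

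Other muscle genes were among the largest positive differences. Myot, myotilin of the Z-disc, was at 60.4, 52.6, 75.6 and 76.6 CPM at 1 week and at 142, 192 and 158 CPM at 6 weeks (1.29 ± 0.13, adjusted p = 0.00255). The groups did not overlap, and every repeat without 1 library kept the call. Abra, an actin-linked activator of serum response factor, was at 68.3, 69.2, 91.4 and 91.0 CPM at 1 week and at 109, 232 and 249 CPM at 6 weeks (1.29 ± 0.24, adjusted p = 0.0127). Of 27 adult contractile and ion handling genes, 1 was lower (3.7%, near the 4.44% of all genes). This was Kcnq1, a potassium channel of repolarisation (-0.42 ± 0.10, adjusted p = 0.0256), and the list's median was -0.07. Abra did not pass without 1 week library 1 or 6 week library 3 (adjusted p = 0.0623 without the latter), nor Kcnq1 without 1 week library 1 or 3 or 6 week library 3 (adjusted p = 0.116).

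Matrix genes did not move as 1 group. Of 30 collagens and elastic fibre genes, 9 were lower and the median was -0.47. Eln, elastin (chromosome 5, 134702593 to 134747323, mm10), was at 53.4, 40.1, 72.3 and 57.1 CPM at 1 week and at 29.4, 19.6 and 19.0 CPM at 6 weeks (-1.30 ± 0.20, adjusted p = 0.00828). The groups did not overlap, and 2 of the 6 week values lay within the Control range of 14.8 to 22.8 CPM. Col1a1, of fibrillar collagen I, was at 182, 116, 197 and 221 CPM at 1 week and at 73.1, 123 and 99.9 CPM at 6 weeks (-0.86 ± 0.21, adjusted p = 0.0346). Here the groups overlapped through library 2 of each time, and all 7 values lay above the Control range of 55.9 to 60 CPM. The basement and microfibrillar collagens Col4a1 (-0.66), Col4a2 (-0.50), Col6a1 (-0.46), Col6a2 (-0.58) and Col6a3 (-0.83 ± 0.14) were also lower, as were Col3a1 (-1.0 ± 0.22) and Col5a1 (-0.91 ± 0.18). The count was 15 without 1 week library 2, 2 without 1 week library 1 or 3, 3 without library 4 and 1 without 6 week library 3. Col1a1 did not pass without 1 week library 1, 3 or 4 or 6 week library 3 (adjusted p = 0.124), and Col6a3 not without the last (adjusted p = 0.058).

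Of 18 collagen processing enzymes 5 were lower. These were the collagen chaperone Serpinh1 (-0.45 ± 0.10), the propeptidases Adamts2 (-0.54 ± 0.12) and Bmp1 (-0.33), the prolyl isomerase Fkbp10 (-0.51) and the lysyl hydroxylase Plod1 (-0.28 ± 0.07). All of the 5 calls were lost without 1 week library 1, 3 or 4 or 6 week library 3, and 1 was left without 6 week library 2. Among 21 matrix proteases and inhibitors, the metalloproteinases Mmp14 (-0.92 ± 0.20), Mmp15 (-0.75 ± 0.15) and Adam12 (-1.52 ± 0.37) were lower and Mmp3 (0.93 ± 0.21), stromelysin 1, was higher. The shares were 14.3% lower and 4.76% higher, against 4.44% and 4.32% of all genes. None of the 3 lower calls was kept without 1 week library 1 or 3 or 6 week library 2 or 3, 1 was without 1 week library 4, and without 6 week library 1 there were 8. Mmp3 did not pass without 1 week library 1 or 4 or 6 week library 3 (adjusted p = 0.096).

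Comp and Dcn were the 2 of 26 matricellular proteins and proteoglycans that were higher (7.69%, near the 4.32% of all genes). Comp, which binds and crosslinks collagen fibrils (chromosome 8, 70373558 to 70382066, mm10), was at 3.33, 4.09, 4.21 and 3.80 CPM at 1 week and at 9.96, 24.5 and 52.6 CPM at 6 weeks. The groups did not overlap, the 6 week values spread by more than 5-fold, and the 1 week values lay above the Control range of 1.58 to 1.96 CPM. The log2 difference was 2.90 ± 0.48 (7.49-fold, adjusted p = 0.00938), and Comp passed in every repeat without 1 library. Dcn, decorin, differed by 0.49 ± 0.11 (adjusted p = 0.0224) and did not pass without 1 week library 1, 3 or 4 or 6 week library 2 or 3 (adjusted p = 0.086). The list's count rose to 10 without 6 week library 1.

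Postn, periostin of activated fibroblasts, was at 588, 233, 697 and 954 CPM at 1 week and at 370, 1085 and 857 CPM at 6 weeks (0.31 ± 0.42, adjusted p = 0.689). The groups overlapped and both held a low library, 2 at 1 week and 1 at 6 weeks, while Control lay at 66.6 to 73.0 CPM. Without 1 week library 2 the difference of Postn was 0.05 ± 0.32 and without 6 week library 1 it was 0.64 ± 0.37. Tnc, tenascin C of injured matrix, was at 41.8, 12.8, 41.2 and 64.5 CPM at 1 week and at 11.9, 20.8 and 12.5 CPM at 6 weeks. Its groups overlapped through 1 week library 2, and the difference was -1.44 ± 0.42 (adjusted p = 0.0621), or -1.72 ± 0.23 (adjusted p = 0.00354) without that library. Ltbp2 and Thbs4, named like Tnc after their values were seen, had 6 week library 1 within the 1 week values and the other 2 above them. Ltbp2, a microfibril protein, was at 26.9, 15.9, 31.7 and 35.6 CPM at 1 week and at 26.2, 88.7 and 94.3 CPM at 6 weeks. Thbs4, thrombospondin 4, was at 29.1 CPM in 6 week library 1 and at 99.2 and 102 CPM in the other 2, with 13.1 to 47.4 CPM at 1 week. With all 7 libraries the log2 differences were 1.32 ± 0.38 for Ltbp2 (adjusted p = 0.0613), 1.21 ± 0.43 for Thbs4 (adjusted p = 0.113), 0.99 ± 0.33 for Cilp (adjusted p = 0.0909) and 0.71 ± 0.38 for Ccn2 (adjusted p = 0.267). With 6 week library 1 left out, they were 1.71 ± 0.19, 1.59 ± 0.28, 1.32 ± 0.22 and 1.10 ± 0.22, with adjusted p-values of 0.000404, 0.00429, 0.00319 and 0.00715. Of 19 TGF-beta signalling genes none passed in edgeR or DESeq2, with 4 higher and 0 lower at an unadjusted p under 0.05 and a median of 0.15.

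Genes of protein breakdown and folding showed small differences to the higher side. Of 39 proteasome subunits 14 were higher (35.9%, against 4.32% of all genes) and the median was 0.18. Psmd12, of the 19S lid, was at 106, 97.2, 99.8 and 103 CPM at 1 week and at 122, 132 and 131 CPM at 6 weeks (0.33 ± 0.06, adjusted p = 0.0102). Psmd7, also of the lid, differed by 0.37 ± 0.07 (adjusted p = 0.015) and Psma6, of the 20S core, by 0.29 ± 0.06 (adjusted p = 0.0158). The libraries of the 2 times did not overlap for 25 of the 39 subunits, all on the higher side, against 12.4% of all genes on that side. The immunoproteasome subunits Psmb8 and Psmb9, which are also counted below as interferon genes, were at -0.38 and -0.41 and did not pass. Psmb10, another immunoproteasome subunit, was higher, at 32.5 to 36.6 CPM at 1 week and 40.9 to 44.3 CPM at 6 weeks (0.27 ± 0.07, adjusted p = 0.0364, and 0.058 without 1 week library 2). With library totals in place of TMM, 4 subunits were higher. The count was 1 without 1 week library 1 or 3, 7 without 1 week library 4, 2 without 6 week library 2, 0 without 6 week library 3 and 21 without 6 week library 1.

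Autophagy and mitophagy genes were higher in 10 of 31 (32.3%, against 4.32% of all genes, median 0.14). Bnip3, a mitophagy receptor, was at 165, 172, 170 and 160 CPM at 1 week and at 208, 283 and 299 CPM at 6 weeks (0.65 ± 0.11, adjusted p = 0.00927). Optn, the receptor optineurin, was at 111, 113, 99.6 and 110 CPM at 1 week and at 143, 167 and 173 CPM at 6 weeks (0.56 ± 0.08, adjusted p = 0.00665). Both had no overlap and passed in all 7 repeats, with 6 week library 1 the lowest of the 3. The receptor Tax1bp1 (0.29 ± 0.05), the LC3 relative Gabarapl1 (0.43 ± 0.11) and the lysosomal proteins Ctsd (0.28 ± 0.06) and Lamp1 (0.21 ± 0.05) were higher too. The core factors Atg5 (0.10), Atg7 (-0.08), Becn1 (0.13) and Ulk1 (-0.16) did not pass. The count was 3 without 1 week library 1 or 3, 4 without library 4, 5 without 6 week library 2 and 2 without 6 week library 3, where Tax1bp1 did not pass (adjusted p = 0.0574).

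Among 16 muscle atrophy and FOXO genes 5 were higher (31.2%, against 4.32% of all genes), 4 of them parts of ubiquitin ligases. Trim63, the ligase MuRF1, was at 204, 235, 195 and 222 CPM at 1 week and at 280, 286 and 323 CPM at 6 weeks (0.46 ± 0.08, adjusted p = 0.0103). Trim54, its relative MuRF3, differed by 0.49 ± 0.09 (adjusted p = 0.0131), Fbxo32, the ligase atrogin-1, by 0.40 ± 0.10 (adjusted p = 0.0332) and Fbxo40 by 0.30 ± 0.07 (adjusted p = 0.0227). Sesn1, a sestrin, differed by 0.51 ± 0.12. Of 21 heat shock proteins 5 were higher (23.8%), 4 of them small chaperones. These were Hspb1 (0.43 ± 0.07), Hspb8 (0.39 ± 0.06), Hspb7 (0.39 ± 0.08) and Cryab (0.38 ± 0.08), with Hspa4 (0.27 ± 0.06). Hspb1 was at 107 to 123 CPM at 1 week and at 146 to 160 CPM at 6 weeks and passed in all 7 repeats. Without 6 week library 3 none of the atrophy genes and 1 heat shock gene passed. The other repeats gave 1 to 9 atrophy genes (1 without 1 week library 1, 2 without 1 week library 3 or 4, 3 without 6 week library 2, 9 without 6 week library 1) and 2 to 7 heat shock genes (2 without 1 week library 1, 3 without 1 week library 3 or 6 week library 2).

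Of 16 ER chaperones 2 were higher (12.5%, against 4.32% of all genes), Canx (0.22 ± 0.06) and Dnajb9 (0.36 ± 0.10). Of 19 ATF4 and serine synthesis genes 2 were lower (10.5%, against 4.44% of all genes), Psat1 (-0.88 ± 0.22) and Sesn2 (-0.81 ± 0.18). All of these 4 calls were lost without 1 week library 1, 3 or 4 or 6 week library 2 or 3, and ER chaperones gave 4 calls without 6 week library 1. The 80 respiratory chain subunits had a median of 0.06 with 1 higher (1.25%), Ndufb3 (0.28 ± 0.05). The 78 cytosolic ribosomal proteins had a median of 0.07 with Rps27 higher (0.38 ± 0.10) and Rps2 lower (-0.28 ± 0.05), 1.28% each way. The shares of these 2 lists lay below those of all genes. Ndufb3 did not pass without 1 week library 3 or 6 week library 3, Rps2 not without 1 week library 1 or 6 week library 3, and Rps27 passed in 1 repeat, without 6 week library 1. Mitochondrial ribosomal proteins were higher in 6 of 77 (7.79%, near the 4.32% of all genes, median 0.11), for example Mrpl20 (0.36 ± 0.07) and Mrps23 (0.24 ± 0.05), and the libraries did not overlap for 25 of the 77, all to the higher side, against 12.4% of all genes on that side. The count of 6 calls was 0 without 1 week library 1 or 6 week library 3, 1 and 2 without 1 week libraries 3 and 4, and 3 without 6 week library 2. With library totals in place of TMM, Mrpl20, Mrps23, Ndufb3, Rps27, Canx and Dnajb9 did not pass.

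**Figure D3:**
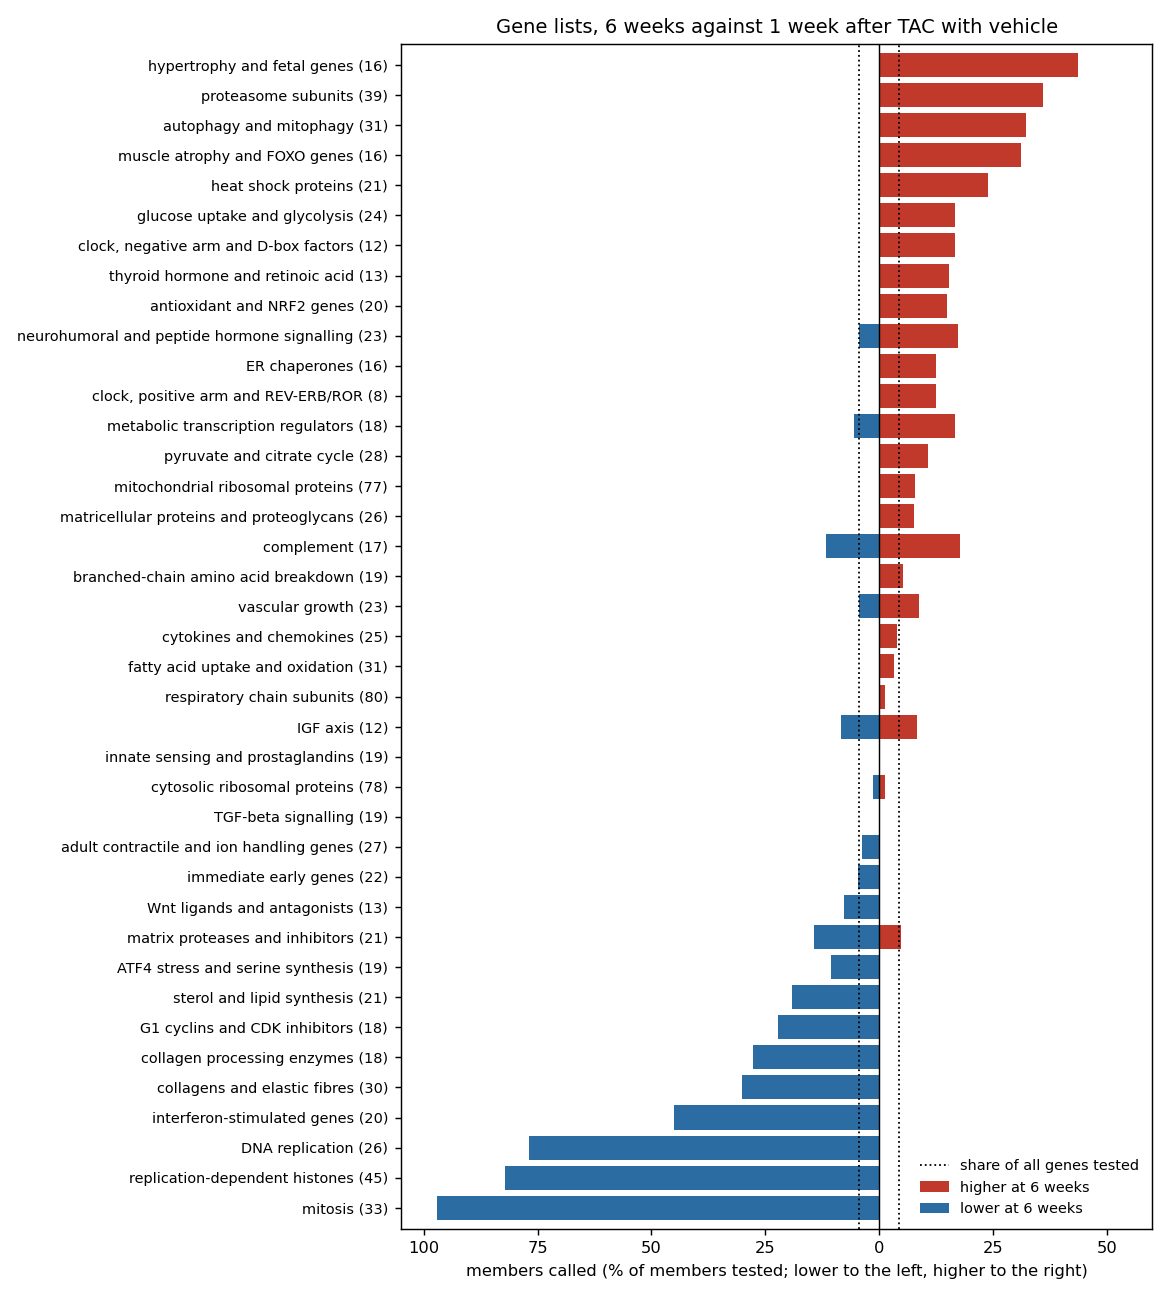
Share of tested members (x axis, percent) called higher (right, red) or lower (left, blue) at 6 weeks than at 1 week after TAC with vehicle, for 39 gene lists (y axis, number tested in brackets). Dotted lines mark the shares of all genes, 4.32% higher and 4.44% lower, and mitosis (97%), histones (82.2%) and DNA replication (76.9%) have the longest bars.

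Fuel metabolism differed little. Of 31 fatty acid uptake and oxidation genes 1 was higher (3.23%, against 4.32% of all genes). This was Fabp3 (0.25 ± 0.07), the fatty acid carrier of heart muscle, which shares the cardiomyocyte list. Of 28 pyruvate and citrate cycle genes 3 were higher (10.7%), all of the pyruvate dehydrogenase system. These were the kinases Pdk1 (0.34 ± 0.07, adjusted p = 0.0172) and Pdk4 (0.47 ± 0.12, adjusted p = 0.0454), which switch the complex off, and Pdhx (0.24 ± 0.05, adjusted p = 0.0283), its E3-binding protein. Of 24 genes of glucose uptake and glycolysis 4 were higher (16.7%). Pfkfb2, the heart enzyme for fructose-2,6-bisphosphate, was at 164, 174, 139 and 175 CPM at 1 week and at 202, 256 and 262 CPM at 6 weeks (0.55 ± 0.11, adjusted p = 0.0139), and Hk2, hexokinase 2, differed by 0.34 ± 0.08, Slc16a1, the lactate carrier MCT1, by 0.24 ± 0.06 and Pgam2, muscle phosphoglycerate mutase, by 0.22 ± 0.06. None of the pyruvate or glycolysis calls was kept without 1 week library 1 or 6 week library 2 or 3. Dbt, of the branched-chain ketoacid dehydrogenase, was the 1 of 19 genes of its list to pass (5.26%, near the 4.32% of all genes), at 0.39 ± 0.10 (adjusted p = 0.0358). It did not pass without 1 week library 1, 3 or 4 or 6 week library 3, and Fabp3 passed only without 1 week library 2.

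Of 18 metabolic transcription regulators 3 were higher (16.7%) and 1 lower (5.56%), against 4.32% and 4.44% of all genes. Ppargc1a, PGC-1 alpha, a coactivator of mitochondrial genes, was at 140, 166, 123 and 120 CPM at 1 week and at 136, 492 and 464 CPM at 6 weeks. Library 1 lay inside the 1 week range and the other 2 lay above it, so the groups overlapped (1.40 ± 0.34, adjusted p = 0.0346). Without library 1 the difference was 1.79 ± 0.11 (adjusted p = 1.7e-05), and without 1 week library 1, 3 or 4 or 6 week library 2 or 3 Ppargc1a did not pass (adjusted p = 0.142 without the last). Its muscle partner Perm1 was higher (0.36 ± 0.09), as was Pparg (0.54 ± 0.15), and its relative Ppargc1b was lower (-0.36 ± 0.09), and all 3 lost the call without 1 week library 1 or 3 or 6 week library 2 or 3. Of 20 antioxidant genes 3 were higher (15%), the catalase gene Cat (0.43 ± 0.07, adjusted p = 0.00826), Gpx4 (0.30 ± 0.06), which reduces lipid peroxides, and Srxn1 (0.50 ± 0.13), sulfiredoxin. Cat passed in all 7 repeats. The count was 8 without 6 week library 1 and 1 without 1 week library 1 or 3 or 6 week library 3. Of 21 sterol and lipid synthesis genes 4 were lower (19%), Fasn (-0.54 ± 0.10), Scd2 (-0.49 ± 0.12), Elovl5 (-0.31 ± 0.08) and Srebf1 (-0.35 ± 0.09). Of these, 1 passed without 1 week library 1, 3 or 4 or 6 week library 2 and none without 6 week library 3.

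Interferon-stimulated genes were lower in 9 of 20, and all 20 had a log2 difference below 0 (median -0.70). Oasl2, an antiviral protein related to 2′-5′ oligoadenylate synthetases, was at 25.3, 18.7, 27.1 and 25.9 CPM at 1 week and at 13.3, 12.6 and 11.3 CPM at 6 weeks. Values of both times were separate, and the 6 week values lay just below the Control range of 13.5 to 16.7 CPM (-0.98 ± 0.13, adjusted p = 0.00577). Bst2, the tetherin that holds virions at the membrane, was at 23.3, 20.7, 28.8 and 28.7 CPM at 1 week and at 16.2, 14 and 14.7 CPM at 6 weeks (-0.77 ± 0.13, adjusted p = 0.009). Gbp3, a guanylate-binding protein, was at 34.1, 31.7, 34.9 and 39.3 CPM at 1 week and at 26.6, 20.7 and 18.8 CPM at 6 weeks (-0.68 ± 0.12, adjusted p = 0.0116). In all of these the 6 week libraries lay below every 1 week library. Irf7, the transcription factor that amplifies the response, differed by -0.85 ± 0.21, Oas1a by -1.15 ± 0.25, Mx1 by -1.05 ± 0.26 and Ifit1 by -0.73 ± 0.15, with Ifit2 (-0.54) and Ifi44 (-0.88) completing the 9. The count was 16 without 6 week library 1, 4 without 1 week library 1, 3 without 1 week library 3 or 4 or 6 week library 2 and 1 without 6 week library 3, where Bst2 and Gbp3 did not pass (adjusted p = 0.0502 and 0.0601).

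Complement genes were split, with calls in both directions among 17 tested. C2, of the classical and lectin pathway convertase (chromosome 17, 34862604 to 34898265, mm10), was at 7.12, 7.84, 7.66 and 7.04 CPM at 1 week and at 1.92, 1.77 and 1.72 CPM at 6 weeks (-2.04 ± 0.16, adjusted p = 0.000684). The spread within each time was below 1 CPM, the groups did not overlap, and the 1 week but not the 6 week values lay near the Control range of 7.32 to 9.73 CPM. C3, the central component, was at 324, 322, 298 and 365 CPM at 1 week and at 228, 198 and 245 CPM at 6 weeks (-0.56 ± 0.09, adjusted p = 0.0086). C7, of the membrane attack complex, was at 9.30, 13.9, 10.1 and 11.9 CPM at 1 week and at 22.1, 18.0 and 23.2 CPM at 6 weeks (0.89 ± 0.14, adjusted p = 0.0089). C2, C3 and C7 passed in all 7 repeats. Serping1, the inhibitor of C1, was higher as well (0.34 ± 0.08).

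Other immune genes gave few calls. Cxcl14, a chemokine of stroma, was the 1 of 25 cytokines and chemokines that was higher (1.17 ± 0.25, adjusted p = 0.0207). That share was 4%, near the 4.32% of all genes. Cxcl14 did not pass without 1 week library 1, 3 or 4 or 6 week library 3 (adjusted p = 0.099). Of 19 genes of innate sensing and prostaglandins none passed in edgeR, 1 was higher in DESeq2, and 2 were higher and 1 lower at an unadjusted p under 0.05. Jun, the AP-1 subunit, was at 87.2, 98.8, 107 and 103 CPM at 1 week and at 56.7, 67.6 and 69.5 CPM at 6 weeks (-0.63 ± 0.09, adjusted p = 0.00667). The times were separate, and 6 week values spanned the Control range of 58.3 to 65.5 CPM. It was the 1 of 22 immediate early genes that was lower (4.55%, near the 4.44% of all genes), and 2 were lower without 6 week library 1 or 2.

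Markers of the mesothelium, the epithelial sheet that covers the heart, were lower in 6 of 9 at 6 weeks (median -2.09). Upk3b, a uroplakin (chromosome 5, 136038496 to 136046487, mm10), was at 13.3, 21.5, 13.2 and 14.9 CPM at 1 week and at 3.98, 1.61 and 0.688 CPM at 6 weeks (-2.91 ± 0.41, adjusted p = 0.00667). There was no overlap between the times, 6 week library 3 had the lowest value, and Control lay at 20.4 to 28.5 CPM. Lrrn4, a membrane protein of mesothelium, was at 8.15 to 9.26 CPM at 1 week and at 1.84, 1.61 and 0.275 CPM at 6 weeks (-2.85 ± 0.37). Upk1b (-2.88 ± 0.38), Msln (-2.26 ± 0.40), Krt19 (-2.09 ± 0.35) and Gpm6a (-1.41 ± 0.18) were also lower. Wt1 (-0.31), Krt18 (-0.08) and Krt8 (-1.60) did not pass. The summed level of the 9 markers was 64.9 to 83.0 CPM at 1 week, 19.3 to 29.4 CPM at 6 weeks and 83.6 to 102 CPM in Control, and none of the 9 was at 0 in all 7 libraries. Repeats without 1 library gave 5 or 6 lower markers.

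Among the largest named differences, Lrp2, the endocytic receptor megalin, was at 6.09, 8.41, 8.52 and 7.20 CPM at 1 week and at 1.55, 0.885 and 0.619 CPM at 6 weeks (-2.89 ± 0.28, adjusted p = 0.00181). Rspo1, a secreted enhancer of Wnt signalling, was the 1 lower gene of 13 Wnt ligands and antagonists (7.69%, against 4.44% of all genes). It was at 1.49 to 3.24 CPM at 1 week and 0.0805 to 0.443 CPM at 6 weeks (-3.31 ± 0.53, adjusted p = 0.0087, and 0.0507 without 6 week library 3). In both, as in Upk3b, library 1 was the highest of the 3 at 6 weeks. How much mesothelium each piece of heart held was not measured, and its part in these differences was not tested.

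Markers of the other cell types gave few calls. Each list is so short that 1 call is already a larger share than that of all genes (4.32% higher and 4.44% lower). Of 10 cardiomyocyte markers 2 were higher, Mb, myoglobin (0.34 ± 0.08), and Fabp3, and their summed level was 47620 to 55400 CPM at 1 week and 52650 to 57840 CPM at 6 weeks. Of 8 fibroblast markers Dcn and Gsn, gelsolin (0.64 ± 0.15), were higher and Lamc1, laminin gamma 1 (-0.37 ± 0.10), was lower, with summed levels of 2772 to 2843 and 3107 to 3721 CPM that did not overlap. A sum follows its most abundant members, and 3 of the 8 had a log2 difference above 0 and 5 below (median -0.03). Cdh5, VE-cadherin (-0.34 ± 0.09), was the 1 of 8 endothelial markers to pass, and of 7 pericyte markers Rgs5 was higher (0.26 ± 0.06) and Cspg4 lower (-0.42 ± 0.10). Each of these calls was lost without 1 week library 1 or 3 or 6 week library 3, and in further repeats. Cd68, a lysosomal protein, was the 1 of 8 macrophage markers that was lower (-0.75 ± 0.17, adjusted p = 0.0235), while the summed level of the 8 overlapped (546 to 659 and 564 to 621 CPM). It did not pass without 1 week library 4 or 6 week library 3. Kit, a receptor of mast cells, was the 1 of 5 mast cell genes called (-0.70 ± 0.12, adjusted p = 0.00911, and 0.0538 without 6 week library 3), and the summed mast cell level was 22.8 to 25.1 CPM at 1 week and 13.4 to 14 CPM at 6 weeks.

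Myl7, atrial myosin light chain, was at 1.03, 2.61, 1.08 and 1.5 CPM at 1 week and at 0.369, 0.402 and 0.344 CPM at 6 weeks (-2.04 ± 0.43, adjusted p = 0.0192). It was the 1 of 6 atrial genes that passed, did not pass without 6 week library 2 or 3, and rests on few fragments. Of the other marker lists, lymphatic endothelium (6 tested), smooth muscle (7), resident macrophage (7), recruited monocyte and macrophage (8), neutrophil (2), T cell (2), B cell (3), Schwann cell (5) and red blood cell (6) gave 0 calls in edgeR and in DESeq2. With 6 week library 1 left out, more genes were lower in several lists with 1 lower gene, namely 4 each of the contractile, endothelial, vascular, Wnt and neurohumoral lists and 3 of the mast cell list. At an unadjusted p under 0.05, 2 genes in the lists with 0 calls were higher and 6 lower. No adipocyte marker had enough fragments to test, with summed levels of at most 2.69 CPM. Of 5 sex-linked genes Ddx3y, a Y-linked helicase, was higher (0.37 ± 0.09, adjusted p = 0.0281), and it did not pass without 1 week library 1 or 3 or 6 week library 2 or 3. The Y-linked Kdm5d was at 64.5 to 69.9 CPM at 1 week and at 64.8 to 68.9 CPM at 6 weeks. The X-linked Xist was at 1.72 to 2.73 and at 1.1 to 2.58 CPM. Neither passed (adjusted p = 0.895 for Kdm5d and 0.888 for Xist).

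Among 23 genes of neurohumoral signalling 4 were higher (17.4%) and 1 lower (4.35%), against 4.32% and 4.44% of all genes. Edn3, the peptide endothelin 3, was at 7.23, 5.34, 8.30 and 8.15 CPM at 1 week and at 17.1, 22.7 and 15.8 CPM at 6 weeks (1.33 ± 0.17, adjusted p = 0.00577). Its receptor Ednrb was at 35.5, 36.2, 38.7 and 42.4 CPM at 1 week and at 48.9, 61.9 and 68.2 CPM at 6 weeks (0.63 ± 0.11, adjusted p = 0.0103). Neither overlapped between times, and for Edn3 all 7 libraries lay above the Control range of 1.95 to 2.47 CPM. The ligand Edn1 and the receptor Ednra did not pass, at 0.14 and 0.08. Agt, angiotensinogen, was at 3.33, 2.16, 2.70 and 3.56 CPM at 1 week and at 4.06, 9.17 and 9.70 CPM at 6 weeks (1.36 ± 0.30, adjusted p = 0.0239). Npr3, the clearance receptor for natriuretic peptides, was higher (0.53 ± 0.10). Apln, the ligand apelin, was at 35.8, 32.3, 42.4 and 39.1 CPM at 1 week and at 20.4, 18.3 and 11.6 CPM at 6 weeks (-1.17 ± 0.17, adjusted p = 0.00769), and its receptor Aplnr did not pass (-0.58). Edn3 and Apln passed in all 7 repeats. The number of higher genes was 2 without 1 week library 1 or 3 and 1 without 6 week library 3.

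Of 23 genes of vascular growth, Flt1, a VEGF receptor (0.45 ± 0.10), and Angptl7 were higher and Nrp2, neuropilin 2 (-0.54 ± 0.11), was lower. The shares were 8.7% higher and 4.35% lower, against 4.32% and 4.44% of all genes. Angptl7, an angiopoietin-like secreted protein, was at 4.94, 4.09, 3.88 and 5.54 CPM at 1 week and at 6.35, 18.8 and 43.4 CPM at 6 weeks (2.29 ± 0.52, adjusted p = 0.0263). No library of one time reached the other, but 6 week library 1 lay close to the 1 week values. Both higher calls were lost without any 1 of 1 week libraries 1, 3 and 4 and 6 week libraries 2 and 3, and Nrp2 without these other than 1 week library 4. In the IGF axis of 12 genes, Igfbp3 was higher (0.53 ± 0.12) and Igfbp4 lower (-0.32 ± 0.08), 8.33% each way. Of 13 genes of thyroid hormone and retinoic acid, 2 were higher (15.4%). These were Dio2, the enzyme that makes active thyroid hormone (1.25 ± 0.27, adjusted p = 0.0224), and Aldh1a1, which makes retinoic acid (0.75 ± 0.16, adjusted p = 0.022). Dio2 was at 7.5 to 18.7 CPM at 1 week, 21.3 to 41.4 CPM at 6 weeks and 2.58 to 3.96 CPM in Control. None of these calls was kept without 1 week library 1 or 3 or 6 week library 3.

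The remaining genes with large positive differences were of mixed function. Tbx15, a T-box transcription factor, was at 1.61, 0.682, 2.80 and 2.61 CPM at 1 week and at 6.20, 9.25 and 8.18 CPM at 6 weeks (1.98 ± 0.31, adjusted p = 0.00864). Aqp8, a water channel, was at 5.74, 5.11, 7.33 and 6.65 CPM at 1 week and at 14.5, 23.3 and 17.3 CPM at 6 weeks (1.54 ± 0.18, adjusted p = 0.00406). No overlap was a condition of naming for both, and all their 6 week values lay above the Control ranges of 0.722 to 0.922 and 1.78 to 2.47 CPM. Fmo2, a flavin monooxygenase, was at 24.9 to 31.8 CPM at 1 week and at 43.5, 68.1 and 96.1 CPM at 6 weeks (1.32 ± 0.22, adjusted p = 0.00911). Tbx15, Aqp8 and Fmo2 passed in all 7 repeats. Rnf144b, a ubiquitin ligase, was at 29.4 to 32.6 CPM at 1 week and at 35.0, 92.3 and 102 CPM at 6 weeks (1.31 ± 0.28). Crispld1, a secreted protein, was at 3.64 to 4.75 CPM at 1 week and at 6.20, 13.4 and 14.8 CPM at 6 weeks (1.43 ± 0.27). In both, 6 week library 1 lay nearest the 1 week libraries. Rnf144b did not pass without 1 week library 1, 3 or 4 or 6 week library 2 or 3 (adjusted p = 0.102), and Crispld1 not without 1 week library 3 or 6 week library 3 (adjusted p = 0.0668). Myoc, myocilin, was at 1.35 to 3.18 CPM at 1 week and at 4.99 to 7.22 CPM at 6 weeks (1.53 ± 0.27, adjusted p = 0.011, and 0.0593 without 6 week library 3).

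Clock genes set 6 week library 1 apart from the other 6 week libraries. All hearts were labelled with the same zeitgeber hour, and whether the hour of sampling varied was not tested. Arntl, the activator BMAL1, was at 22.4, 16.2, 17.3 and 13.7 CPM at 1 week and at 42.9, 3.62 and 2.75 CPM at 6 weeks. Per2, a repressor, was at 13.2, 19.8, 16.5 and 24.8 CPM at 1 week and at 2.29, 59.7 and 67.9 CPM at 6 weeks. For both genes library 1 lay on one side of all 1 week libraries and the other 2 on the opposite side. With all 7 libraries the differences were -0.07 ± 0.74 for Arntl (adjusted p = 0.967) and 1.20 ± 0.69 for Per2 (adjusted p = 0.306). Without 6 week library 1 they were -2.46 ± 0.23 and 1.75 ± 0.16, both with an adjusted p of 0.00014. The output factor Dbp was at 24.0 to 32.6 CPM at 1 week and at 7.90, 36.9 and 40.3 CPM at 6 weeks, with a difference of -0.03 ± 0.40 (adjusted p = 0.978), or 0.42 ± 0.11 (adjusted p = 0.0261) without 6 week library 1. Nr1d1, REV-ERB alpha, was at 42.6, 48.4, 44.6 and 36.2 CPM at 1 week and at 24.1, 36.3 and 34.9 CPM at 6 weeks (-0.44 ± 0.15, adjusted p = 0.0937), and Control lay at 55.2 to 64.7 CPM.

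A pair of repressors did not follow that split. Nfil3, which competes with Dbp at D-boxes, was at 9.65, 8.18, 7.87 and 8.07 CPM at 1 week and at 17.9, 17.5 and 19.5 CPM at 6 weeks (1.11 ± 0.11, adjusted p = 0.00181). Cry1, a repressor of the clock activators, was at 9.19, 7.72, 8.41 and 9.50 CPM at 1 week and at 14.3, 14.9 and 18.1 CPM at 6 weeks (0.85 ± 0.12, adjusted p = 0.00669). All 3 libraries at 6 weeks lay above every 1 week and Control library for both genes, and both passed in all 7 repeats. They were the 2 of 12 genes of the negative arm that were higher, and without 6 week library 1 the count was 11 of 12.

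**Figure D4:**
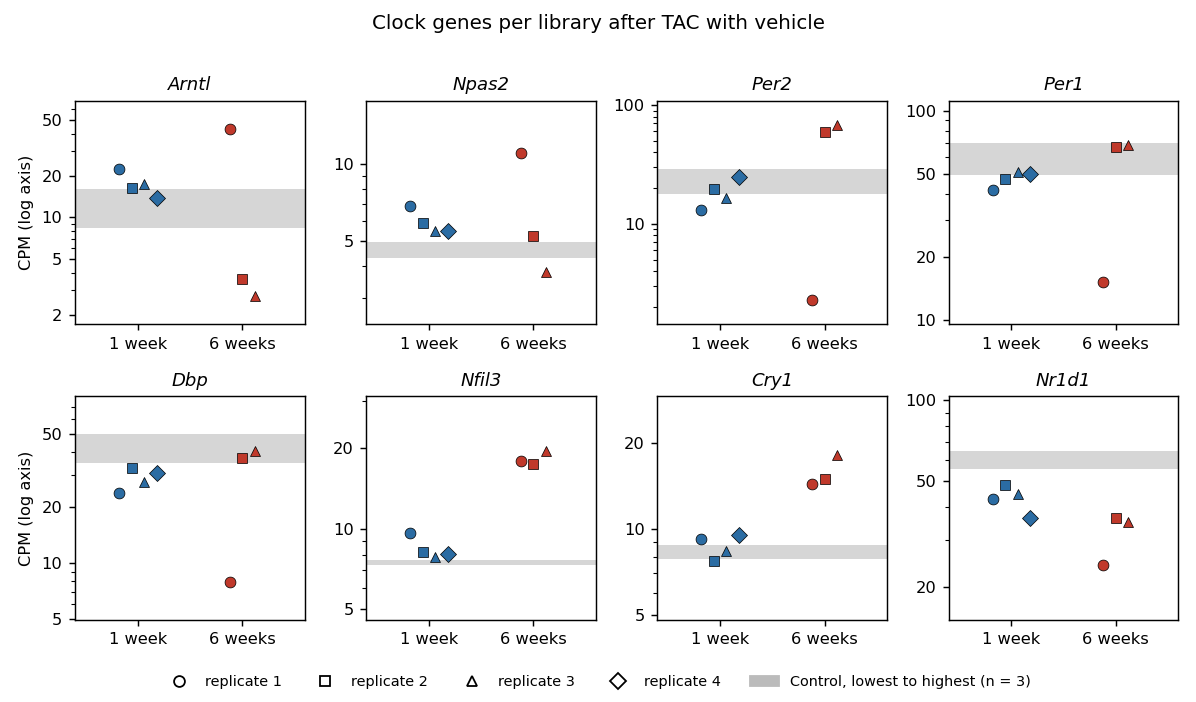
Level of 8 clock genes in each library (y axis, CPM on a log axis) 1 week (blue) and 6 weeks (red) after TAC with vehicle, with marker shapes for replicate numbers and grey bands for the range of the 3 Control libraries. For Arntl and Per2, 6 week library 1 (42.9 and 2.29 CPM) lies across the 1 week values from the other 2, while for Nfil3 and Cry1 all 3 lie above them.

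Classes of small RNA genes differed in how many members were lower. These classes were chosen after their values were seen, and many such genes have near-identical copies. Of 12 snRNA genes 5 were lower (41.7%), of 86 snoRNA genes 9 (10.5%, with 1 higher) and of 12 scaRNA genes 2 (16.7%), against 4.44% of all genes. Of 12 miRNA genes the 1 that passed was higher, and of 32 genes of the class misc_RNA 1 was lower (3.12%) and 2 were higher (6.25%). Rmrp, the RNA of the RNase MRP particle that processes ribosomal RNA, was at 710, 790, 816 and 784 CPM at 1 week and at 317, 382 and 578 CPM at 6 weeks (-0.87 ± 0.17, adjusted p = 0.0144). Rnu3a, a U3 snoRNA, was at 117, 123, 122 and 109 CPM at 1 week and at 61.2, 75 and 59.5 CPM at 6 weeks (-0.86 ± 0.09, adjusted p = 0.00255). Neither overlapped. Vaultrc5, a vault RNA, was higher (0.78 ± 0.14, adjusted p = 0.0111). The part of RNA size selection or library making in these values was not tested.

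The same time difference was measured in the SR9009 hearts, which share no library with the vehicle hearts. There 451 of 15516 genes tested passed (2.91%), 122 higher (0.786%) and 329 lower (2.12%). Of the 667 genes higher with vehicle, 666 were tested with SR9009, 617 had the same sign (92.6%, against 51.9% of all genes above 0) and 38 passed. Of the 687 lower genes 677 were tested, 608 had the same sign (89.8%, against 48.1% below 0), 205 passed in the same and 5 in the opposite direction. The SR9009 counts rested on single libraries. The total of 451 became 2 without 1 week SR9009 library 1 or 6 week SR9009 library 1, 9 and 10 without 6 week SR9009 libraries 2 and 3, and 1066 and 733 without 1 week SR9009 libraries 2 and 4.

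With SR9009, 32 of 33 mitosis genes were lower (median -2.43), as were 14 of 26 DNA replication genes (median -1.15, 20 of 26 with vehicle) and 22 histone genes (median -2.06, 37 with vehicle). Among the mitosis genes Mki67 was at 87.1 to 251 CPM at 1 week and at 14.1 to 25.6 CPM at 6 weeks (-2.92 ± 0.40, adjusted p = 0.0179). Interferon-stimulated genes were lower in 6 of 20 (median -0.95). Hypertrophy genes were higher in 1 of 16 (median 0.09), against 7 of 16 (median 0.55) with vehicle, and the median of the proteasome subunits was 0.04, against 0.18 with vehicle. These differences between lists were not tested. Myot was higher with both, at 55.4 to 62.2 CPM at 1 week and 124 to 151 CPM at 6 weeks with SR9009 (1.28 ± 0.08, adjusted p = 0.000201). Acta1 was at 876 to 2271 CPM at 1 week and at 1255 to 1646 CPM at 6 weeks with SR9009 (0.05 ± 0.27, adjusted p = 0.927), and Myh7 at 550 to 1219 and 665 to 1279 CPM (0.25 ± 0.28, adjusted p = 0.641).

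A call in vehicle and not in SR9009 does not show a difference between them, and the test of the difference itself found 7 genes of 15979 (0.0438%), 1 with a positive (0.00626%) and 6 with a negative difference (0.0375%). For Acta1, Myh7 and Ppargc1a the differences of the log2 differences were 1.20 ± 0.45, 1.36 ± 0.60 and 1.46 ± 0.42, with adjusted p-values of 0.314, 0.375 and 0.219. Among the 7 were 3 predicted small RNA genes and Rmrp, which was at 253 to 533 CPM 1 week and 670 to 960 CPM 6 weeks after TAC with SR9009, the opposite of vehicle. The other 3 were Ccdc107, whose span overlaps Rmrp on the other strand so that their fragments cannot be told apart, A230004M16Rik, and the chemokine receptor Ackr4, at 35.9 to 42.3 CPM at 1 week and 51.2 to 55.8 CPM at 6 weeks with vehicle, and at 43.1 to 44.8 and 39.5 to 42 CPM with SR9009. The count of 7 was 697 without 6 week vehicle library 1, 20 without 6 week SR9009 library 3 and 12 or 13 without 1 week SR9009 library 1 or 1 week vehicle library 4. It was 0 to 4 without 6 week SR9009 libraries 1 (0) and 2 (0), 1 week SR9009 libraries 3 (1) and 4 (3), 1 week vehicle libraries 1 (3), 2 (2) and 3 (1) and 6 week vehicle libraries 2 (2) and 3 (4).

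**Figure D5:**
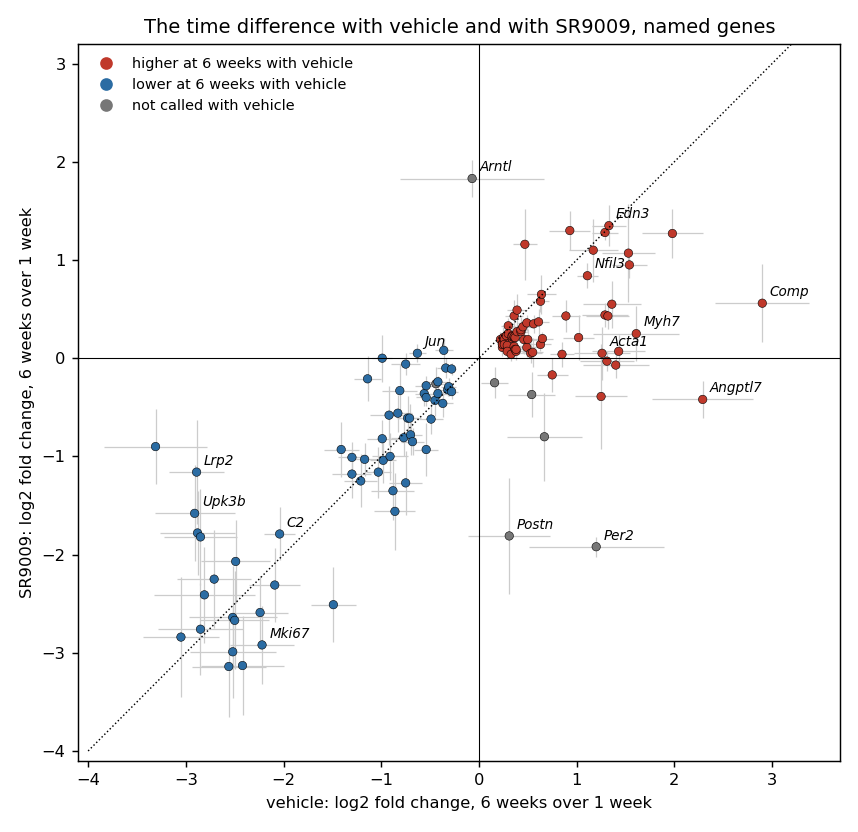
Log2 fold change from 1 week to 6 weeks after TAC with vehicle (x axis) and with SR9009 (y axis) for the genes named by rule, with standard errors as grey bars and the line of equality dotted. Cell division genes such as Mki67 (-2.22 and -2.92) lie at the lower left, Edn3 (1.33 and 1.35) near the line, and Comp (2.90 and 0.56), Angptl7 (2.29 and -0.42) and Per2 (1.20 and -1.92) below it.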

How the data were processed

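Per the file headers, the deposited tables hold 41126 genes with estimated counts (raw fragments), scaled fragments (a signal, 1 factor per library) and FPKM as the authors made them. Genome build mm10 is named in the submitters' processing notes, while the aligner and counter were not given in the sources used here. Only the authors' estimated counts were used. Between 2289 and 2678 values per library were not whole, and all were rounded. Genes marked as too deep to count in any of the 7 libraries (74) were dropped, and 8 genes marked as failed were kept where listed. Symbols came from GENCODE vM21 (40252 IDs matched, 874 not).

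The groups were compared with edgeR 4.0.16 in R 4.3.3 (limma 3.58.1), with filterByExpr (25596 genes removed), TMM and the quasi-likelihood test over the 7 libraries (5 residual degrees of freedom, biological coefficient of variation 0.106), at an adjusted p under 0.05. DESeq2 1.42.0 was an alternative, with other scalings and filters, a thinned table, a library total covariate, a replicate block and repeats without each library. Simulated data for the 7-library comparison (15456 genes) gave 91% of changed genes at a log2 fold change of 1, 100% at 2, and calls in 0.0398% of unchanged genes. Every simulated gene had the same biological coefficient of variation (0.106), and no simulated library was made to stand apart. These shares therefore do not give the rates for the real libraries. Genes were named as the 12 largest differences each way with at least 5 CPM in a group and no overlap, the 3 smallest p-values of each list, and a fixed set. Predicted genes were left out of the largest differences. The members and lists were chosen with earlier results of these data known. Some results are not reported here.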

Additional observations from a re-analysis of the deposited data

Results flagged for a closer look

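In 6 of 132 groups of 4 one week libraries tested, 1 library lay far from the other 3 by Dixon's ratio at its critical value, which chance gives in about 1 of 20 groups. Library 4 was the highest for Cenpf (104 CPM), Cdk2 (21.6 CPM) and Tax1bp1 (180 CPM). Library 2 was the lowest for Acta1 (746 CPM), Mmp14 (20.4 CPM) and Sesn2 (3.75 CPM).

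The time difference itself differed between vehicle and SR9009 for 7 genes, by edgeR's quasi-likelihood interaction test with Benjamini-Hochberg adjustment. As vehicle minus SR9009 on the log2 scale, it was -2.01 ± 0.31 (SE) for Rmrp (adjusted p = 0.0364) and -1.31 ± 0.20 for Ccdc107 (adjusted p = 0.0364), which overlap each other. It was -1.25 for the snoRNA gene Gm26448 (adjusted p = 0.00905), -1.25 for the scaRNA gene Gm25395 (adjusted p = 0.0214) and -1.05 for the snoRNA gene Gm24119 (adjusted p = 0.0492). It was -0.84 for A230004M16Rik (adjusted p = 0.0364) and 0.54 for Ackr4 (adjusted p = 0.0395).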

How the results depend on the processing

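With the library total as a covariate 7 genes were higher and 80 lower, with library totals alone 301 and 1133, and with a replicate block 4 and 6. Deviations from the group means had r = 0.0717, -0.23 and -0.0589 in same-numbered libraries, and from -0.191 to 0.186 in other pairs. The numbers were not taken to pair the libraries. So few pairs cannot decide whether a number marks a shared batch, and this was not tested further. Under the covariate and the replicate block, in that order, the lists had 20 and 1 (mitosis), 1 and 0 (DNA replication), 19 and 1 (histones), 0 and 0 (hypertrophy), 0 and 0 (proteasome) and 0 and 0 (interferon) called members, and library totals alone gave 4 proteasome subunits. The SR9009 count of 451 was 1061 with DESeq2 and 1029 with no filter. The 7 unequal genes became 85 with DESeq2, 40 with no filter and 1 with the replicate block. Without 1 library each, counts ran from 102 to 1430 (higher), 134 to 1232 (lower), 2 to 1066 (SR9009), 0 to 697 (unequal), 20 to 32 (mitosis), 5 to 23 (DNA replication), 13 to 38 (histones), 2 to 8 (hypertrophy), 0 to 21 (proteasome) and 1 to 16 (interferon). Arntl ran from -2.46 (without 6 week library 1) to 0.44 and Postn from -0.02 to 0.64 (without 6 week library 1). Arntl turned to 0.80 with the covariate and to 0.07, 0.39 and 0.44 without 1 week library 1, 6 week library 2 and 6 week library 3, Nppb to -0.30 with the covariate, and Postn to -0.47 with the covariate and -0.02 without 6 week library 2. None of these 3 genes was called. The cause of these moves was not tested. Of 1978 values of named genes under other settings, 1415 kept direction and call, 553 lost the call, 3 gained it and 7 turned. Depth limits genes near 1 CPM, which rest on few fragments.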
